A study of Rattus norvegicus with 18 samples.

Results

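Complex I, the NADH dehydrogenase of the respiratory chain, was followed here through its nuclear genes in the livers of control rats, rats with non-alcoholic steatohepatitis (NASH) and rats with NASH and cirrhosis (NASH-CH). The genes were taken by symbol: names starting with Nduf followed by a, b, c, s, v, ab or af and a number, with at least 10 counts in at least 6 of the 18 rats. Of 32623 genes in the count tables, 48 matched by symbol and 43 reached that level, and 42 of these passed the filter on low counts and were tested. The 42 comprised 34 subunits, 7 assembly factors (Ndufaf1 to Ndufaf7) and Ndufa4, whose product carries a complex I name but is now assigned to complex IV.

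RNA was sequenced from whole liver tissue of male Wistar rats, 6 per group and 1 library per rat. Control rats received standard chow and plain water for 12 weeks. NASH rats inhaled carbon tetrachloride (CCl4), a toxin activated by hepatocytes, over 6 weeks while drinking water with phenobarbital, which was followed by 4 weeks of a diet high in fat and cholesterol (HFCD). In NASH-CH rats CCl4 and phenobarbital ran for all 24 weeks, and the HFCD was added for the last 16. The submitters' design text gives the treatments only as 10 and 24 weeks of CCl4 and diet combined. Both disease groups therefore shared the toxin, the inducer and the diet but differed in dose, order and duration, and the 3 groups were on study for different times, so stage, exposure and time cannot be told apart. Rats were housed in pairs, and the cage of each rat was not used here.

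As background, complex I takes electrons from NADH, passes them along a chain of iron-sulfur clusters to ubiquinone and pumps protons across the inner mitochondrial membrane. Its peripheral arm stands in the matrix and holds the NADH site and the clusters, while its membrane arm holds the pumps. The core subunits carry the chemistry and are conserved from bacteria. Those of the peripheral arm are nuclear, and those of the membrane arm are encoded by the mitochondrial genome. Accessory subunits surround the core and stabilise it, and assembly factors help to build the complex without staying in it. Hepatocytes are rich in mitochondria and depend on this chain to oxidise fatty acids.

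The start regions of 5 genes are shown because these genes carry the ends of the comparisons below. Ndufb2, Ndufb8 and Ndufab1 had the lowest log2 fold changes in NASH-CH rats, and Ndufaf7 and Ndufa12 had the lowest in NASH rats. Each sequence runs 5′ to 3′ on the strand of the gene, from 250 bases before the RefSeq start to 50 after it, and was taken from RefSeq on GRCr8. Capitals mark a motif match, and a sequence without capitals held none of the motifs of NRF1, ETS factors, YY1 and CREB that were searched. The regions are chr4:69334057-69334356 (plus strand) for Ndufb2, chr1:253362887-253363186 (minus) for Ndufb8, chr1:186089287-186089586 (minus) for Ndufab1, chr7:30658066-30658365 (plus) for Ndufa12 and chr6:21871916-21872215 (minus) for Ndufaf7.
Ndufb2: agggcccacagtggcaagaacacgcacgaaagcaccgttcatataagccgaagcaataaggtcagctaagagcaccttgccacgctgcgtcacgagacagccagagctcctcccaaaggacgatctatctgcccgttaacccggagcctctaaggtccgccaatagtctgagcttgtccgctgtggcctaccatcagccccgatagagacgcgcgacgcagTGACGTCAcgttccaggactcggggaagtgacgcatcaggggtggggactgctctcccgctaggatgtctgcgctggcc
Ndufb8: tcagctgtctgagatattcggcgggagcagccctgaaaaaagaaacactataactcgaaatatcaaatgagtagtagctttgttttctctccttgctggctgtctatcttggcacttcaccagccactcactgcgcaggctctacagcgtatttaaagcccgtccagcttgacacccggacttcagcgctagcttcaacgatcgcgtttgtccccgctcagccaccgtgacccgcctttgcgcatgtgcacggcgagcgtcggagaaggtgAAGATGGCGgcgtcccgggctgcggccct
Ndufab1: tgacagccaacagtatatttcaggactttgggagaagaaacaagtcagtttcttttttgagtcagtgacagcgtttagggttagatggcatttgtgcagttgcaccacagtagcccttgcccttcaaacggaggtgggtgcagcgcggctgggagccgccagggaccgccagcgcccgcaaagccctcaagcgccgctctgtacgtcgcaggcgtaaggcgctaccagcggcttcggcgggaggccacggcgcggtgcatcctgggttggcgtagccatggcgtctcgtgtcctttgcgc
Ndufa12: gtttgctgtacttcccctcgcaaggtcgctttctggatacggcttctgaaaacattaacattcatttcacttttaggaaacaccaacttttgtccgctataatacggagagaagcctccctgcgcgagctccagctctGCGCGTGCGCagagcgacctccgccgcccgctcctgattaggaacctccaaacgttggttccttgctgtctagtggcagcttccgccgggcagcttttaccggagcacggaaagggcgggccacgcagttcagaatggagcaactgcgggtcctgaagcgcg
Ndufaf7: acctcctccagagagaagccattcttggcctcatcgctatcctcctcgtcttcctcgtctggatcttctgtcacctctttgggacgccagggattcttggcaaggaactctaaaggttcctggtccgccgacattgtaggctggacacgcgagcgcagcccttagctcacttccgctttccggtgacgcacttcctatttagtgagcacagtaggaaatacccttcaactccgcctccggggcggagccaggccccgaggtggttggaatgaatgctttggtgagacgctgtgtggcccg

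The capitals in Ndufb2 are the cAMP response element TGACGTCA, which starts 29 bases before the start. In Ndufb8 they are the YY1 motif AAGATGGCG at position 21 after it. Ndufa12 held the motif of nuclear respiratory factor 1 (NRF1; GCGCA, any base, then GCGC) on the opposite strand, 112 bases before the start. Promoters were found for 38 of the 42 member symbols, and both strands were searched. The NRF1 motif was present in 8 of the 38, or 21.1%, against 4.25% of all 33469 promoters of the same length. The YY1 motif was present in 6, or 15.8%, against 1.73%. The ETS motif CCGGAAG was in 7, or 18.4%, against 8.75%, and TGACGTCA was in 2, or 5.26%, against 1.83%. At least 1 of these 4 motifs was present in 21 of 38 member promoters, 55.3%, against 14.8% of all promoters. The TATA box TATAAA was in 2 member promoters, or 5.26%, against 14.2%. The median GC content was 57.3% over members and 51.7% over all promoters, so the 2 sets also differed in base composition. No member promoter held TCAAGGTCA, a motif of the oestrogen-related receptor alpha that 0.433% of all promoters held. These are matches of letters in a fixed window and were read no further.

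Library totals were 19498516 to 29491895 counts in control and NASH rats and 44680345 to 60117806 in NASH-CH rats, so depth differed with the group. Among the hepatocyte markers all 9 were expressed, with summed levels of 137121 to 196125 CPM (counts scaled to a common library total, here with TMM factors) in control, 99045 to 159968 in NASH and 91969 to 149984 in NASH-CH rats. As background for the marker counts, 8.60% of all genes tested fell and 8.38% rose in NASH-CH rats at an adjusted p under 0.05 by limma. In NASH rats 1.54% fell and 1.58% rose. Of the 9 hepatocyte markers, Apoa1, Ttr and Alb fell in NASH-CH rats and Apoa1 in NASH rats, while Hnf4a was at a log2 fold change of -0.01 in NASH-CH rats. In NASH-CH rats 3 of the 9 lay above 0, the highest being Apob at 0.36, and in NASH rats 2 did, Apob at 0.42; none of these passed. Of 6 macrophage markers, 4 fell in NASH-CH rats (Marco, Csf1r, Cd163 and Clec4f) and Marco in NASH rats, with summed levels of 198 to 375, 155 to 229 and 132 to 197 CPM in the 3 groups. Of the 6 tested of 7 stellate cell and myofibroblast markers, Col1a1 and Des rose and Lrat fell in NASH-CH rats (Lrat also in NASH rats), at summed levels of 270 to 364, 219 to 298 and 269 to 409 CPM. Vwf was the 1 of 4 tested endothelial markers that rose in NASH-CH rats, and no cholangiocyte marker (3 of 5 tested) or lymphocyte marker (2 of 6 tested) passed in either comparison with control by limma. Between the disease groups, the cholangiocyte marker Spp1 (1.61) and the stellate cell and myofibroblast markers Col1a1 (1.01), Des (0.56) and Col3a1 (0.49) were higher in NASH-CH than in NASH rats, on the log2 scale. In that comparison 1.81% of all genes were higher in NASH-CH rats. The lymphocyte markers Cd3e, Cd3d and Cd79a were at 0 counts in at least 1 rat. In whole liver, fewer cells of a type and less RNA per cell cannot be told apart, and the part of cell composition in the results below was not tested. By staining, the paper reports more CD163-positive macrophages in NASH-CH than in control livers, while Cd163 RNA was lower here.

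The question put to the first comparison is how complex I transcripts stood in NASH rats. No member passed the threshold of adjusted p under 0.05 in NASH rats by limma-voom, against 3.12% of the 12904 genes tested in either direction and 1.54% in the lower one. All 42 log2 fold changes lay below 0, against 49.0% of all genes. The median was -0.33 over the 34 subunits and -0.31 over the 7 assembly factors, against 0.01 over all genes tested. Unadjusted p fell under 0.05 for 28 members, 25 of them subunits, against 21.5% of all genes in either direction and 11.0% in the lower one. The edgeR quasi-likelihood test called 4 members and DESeq2 called 11, all of them lower, where 2.53% and 5.11% of all genes were called lower.

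**Figure D1:**
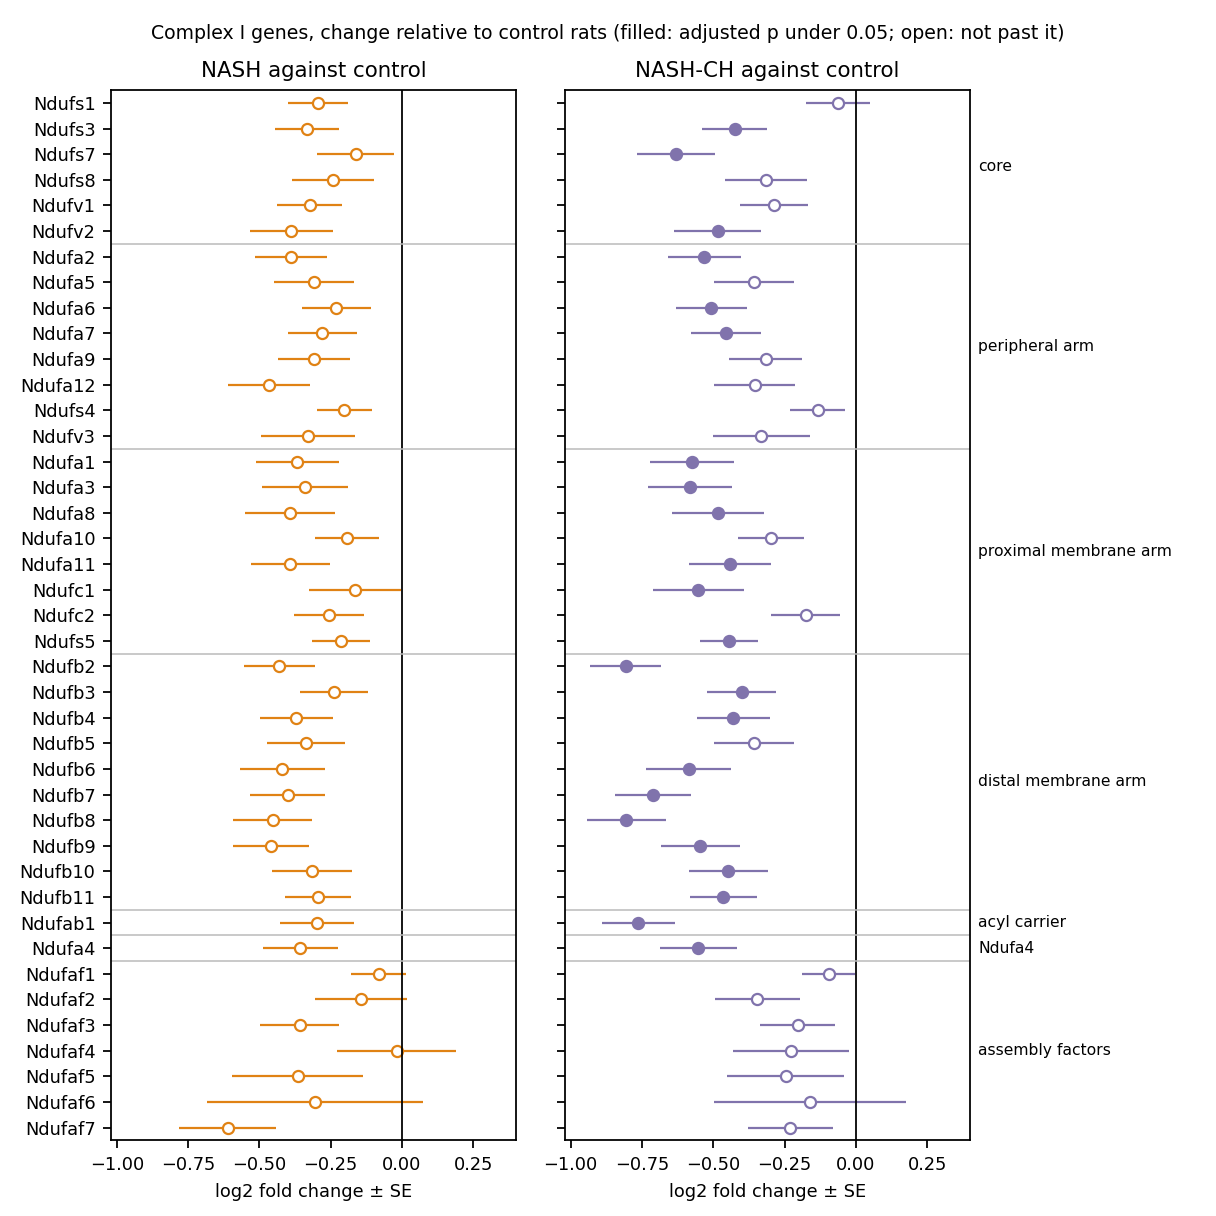
Each point is the log2 fold change of 1 gene relative to control (horizontal axis) with its SE from the limma fit, for NASH on the left and NASH-CH on the right, with genes grouped by role. All 41 genes plotted lie below 0 in both panels on this scaling. None is filled (adjusted p under 0.05) for NASH, and 23 are filled for NASH-CH, none of them an assembly factor. By library size alone, 5 subunits in NASH and 3 in NASH-CH lay above 0. So did the assembly factors Ndufaf1, Ndufaf2 and Ndufaf4 in NASH and Ndufaf1, Ndufaf3, Ndufaf4, Ndufaf6 and Ndufaf7 in NASH-CH.

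In NASH-CH rats 24 of the 42 members fell and none rose, against 8.60% of all genes tested that fell and 17.0% called in either direction. The 24 were 23 of the 34 subunits and Ndufa4, and no assembly factor was among them. The median log2 fold change was -0.45 over subunits, which puts the median subunit at 73.3% of the control level, and -0.23 over assembly factors, at 85.4%. Over all genes tested it was 0.01. Again all 42 values lay below 0, against 48.5% of all genes. Every NASH-CH rat was below every control rat for 4 members (Ndufb2, Ndufb8, Ndufab1 and Ndufs5), against 3.46% of all genes. Both comparisons rest on the same 6 control rats, so they are not independent of each other. The difference between the subunit and assembly factor lists was not tested.

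The number of calls depended on few rats and on the scaling. Without NASH-CH rats 5 and 6, a choice made after the data were seen, 8 members fell: Ndufb2, Ndufb8, Ndufab1, Ndufb7, Ndufs7, Ndufs5, Ndufa2 and Ndufa6. In that fit 6.45% of all genes fell. The subunit median was then -0.31. With library size as the only scaling, 12 fell, against 3.79% of all genes, and the subunit median was -0.19, while the median over all genes moved to 0.27; 31 of 34 subunits and 2 of 7 assembly factors then lay below 0. For NASH rats the same scaling gave a subunit median of -0.10 beside 0.23 over all genes, with 29 of 34 subunits below 0.

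The mean level of the 34 subunits in each rat shows how the groups overlapped. Control rats 1, 3, 4 and 5 were at 5.29 to 5.45 log2 CPM, while control rats 2 and 6 were at 4.88 and 4.89. NASH rats lay close together, from 4.78 to 5.00. NASH-CH rats 1 to 4 were at 4.86 to 5.00, and rats 5 and 6 at 4.44 and 4.49. The 2 low controls were therefore within the range of the NASH rats, as were NASH-CH rats 2, 3 and 4, and NASH-CH rat 1 was level with the highest NASH rat. This order ran through the genes: control rats 2 and 6 were the 2 lowest controls in 32 of 34 subunits, and NASH-CH rats 5 and 6 the 2 lowest of their group in 32 of 34. These rats also had the 2 lowest summed hepatocyte markers of the NASH-CH group (91969 and 110456 CPM, against 127588 to 149984 in the other 4) and the 2 highest summed cholangiocyte markers (35.4 and 15.8 CPM, against 5.63 to 13.3). Rat 5 had the lowest summed endothelial markers (97.7 CPM). All these sums were divided by the same TMM factors as the subunit levels, and the factors were highest in NASH-CH rats 5 and 6 (1.28 and 1.22). Low hepatocyte sums and low subunit levels in these 2 rats are therefore linked by construction. The part of these marker levels in the subunit values was not tested. In 28 of 34 subunits both control rats 2 and 6 were below the highest NASH rat.

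**Figure D2:**
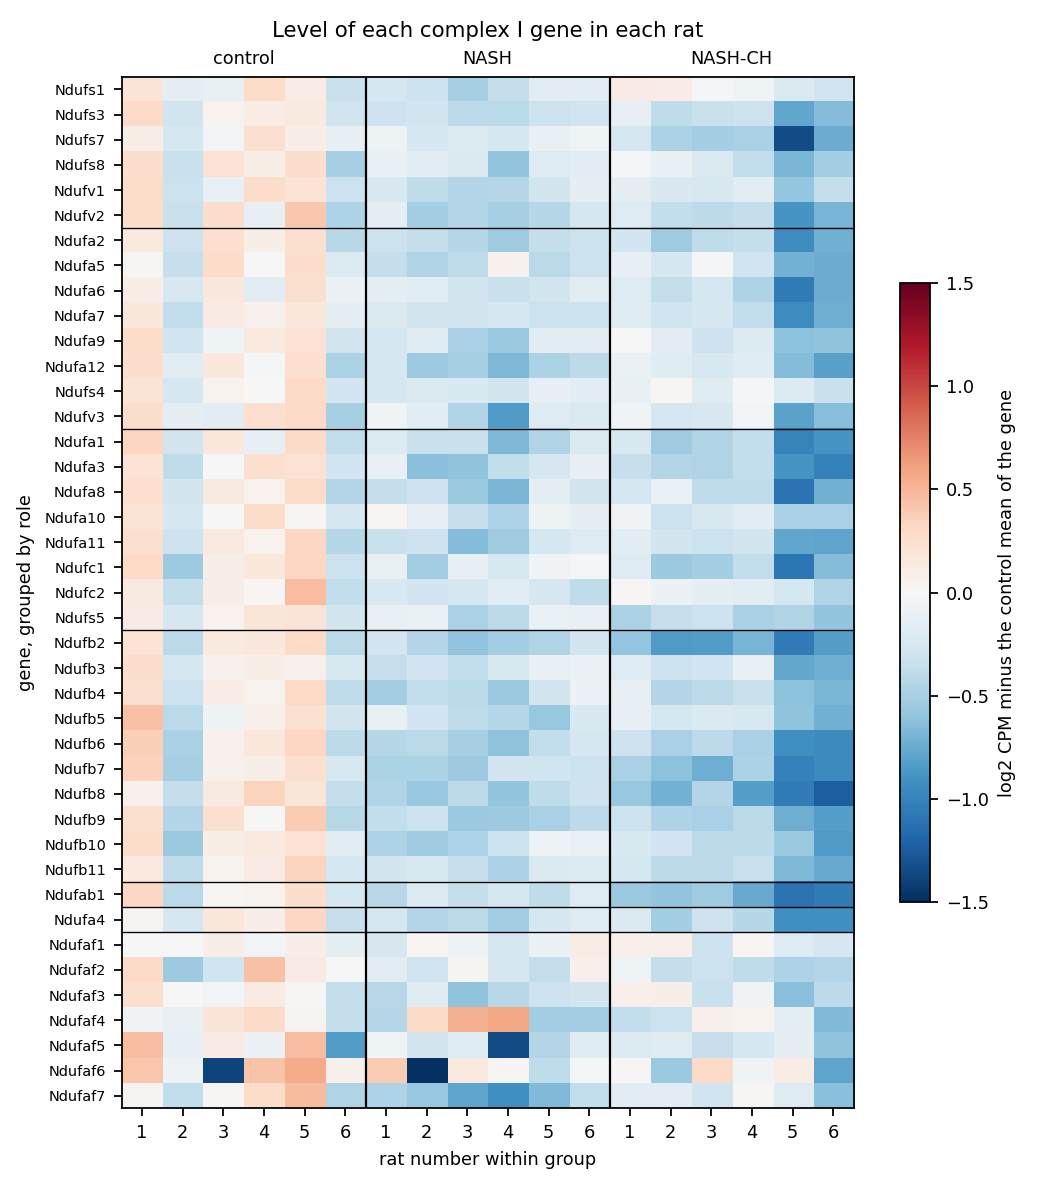
Colour gives the log2 CPM of each gene (rows, grouped by role) in each rat (columns, by group) minus the mean of that gene over the 6 control rats. NASH-CH rats 5 and 6 are darkest across the subunit rows, control rats 2 and 6 are below the other controls, and in the 7 Ndufaf rows at the bottom control rat 6 is the lowest control in 5 and NASH-CH rat 6 among the 2 lowest of its group in 7.

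Library scaling moved with these levels. The TMM factor, by which each library is scaled to match the bulk of its genes, was 0.79 to 0.90 in control rats 1, 3, 4 and 5 and 1.01 to 1.03 in control rats 2 and 6. It was 0.98 to 1.15 in NASH rats, 0.97 to 1.01 in NASH-CH rats 1 to 4, and 1.28 and 1.22 in NASH-CH rats 5 and 6. The level of a gene is divided by this factor, so level and factor are linked by construction. As a plain share of all counts, with no such factor, the 34 subunits took 0.114 to 0.137% in control, 0.109 to 0.130% in NASH and 0.106 to 0.120% in NASH-CH rats, and these ranges overlapped. NASH-CH rats 5 and 6 were also lowest of their group in this share (0.107 and 0.106%, against 0.109 to 0.120% in the others). Control rats 2 and 6 were likewise the lowest controls (0.114 and 0.116%, against 0.124 to 0.137%). The 10 most abundant genes of a library took 47.4 to 56.3% of counts in control, 43.5 to 46.2% in NASH and 42.4 to 48.3% in NASH-CH rats. The part of these shares in the calls was not tested.

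**Figure D3:**
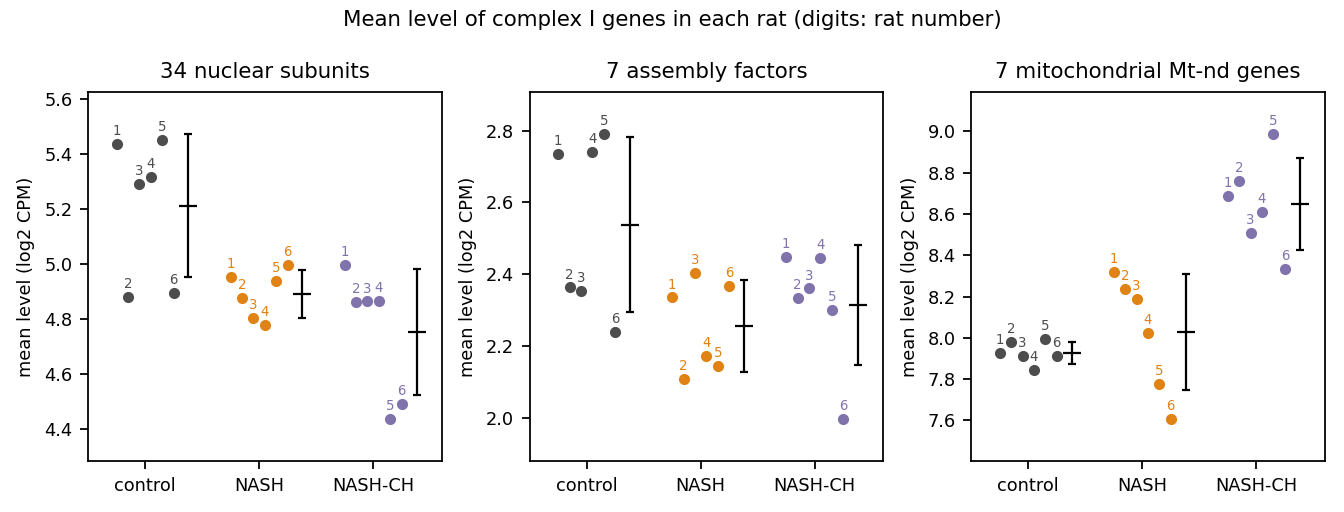
Points are the mean log2 CPM of the 34 nuclear subunits, the 7 assembly factors and the 7 subunits of the mitochondrial genome in each rat, numbered within its group; bars are the group mean ± SD (n = 6). Nuclear subunits overlap between groups through control rats 2 and 6, with NASH-CH rats 5 and 6 lowest, while the mitochondrial genes are highest in NASH-CH rats.

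Core subunits of the peripheral arm bind the flavin and the iron-sulfur clusters. In NASH-CH rats 4 of the 7 fell, among them Ndufs7, and the median of the 7 was -0.43 against -0.32 in NASH rats. Ndufs7 (ENSRNOG00000024568), which carries the last cluster before ubiquinone, was at 26.4 to 37.3 CPM (median 32.2) in control, 26.3 to 30.2 CPM (median 28.4) in NASH and 12.5 to 26.4 CPM (median 22.4) in NASH-CH rats. NASH-CH rats 2 to 6 were below every control rat and rat 1 was level with the lowest control, while rat 5 was the lowest of all 18. It fell in NASH-CH rats with a log2 fold change of -0.63 ± 0.14 (SE, limma adjusted p = 0.00441). The NASH value, a log2 fold change of -0.16 ± 0.14 (SE, limma adjusted p = 0.522), did not pass, and its direction turned under library size alone (0.06).

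Ndufs1 (ENSRNOG00000011849), the largest subunit and the carrier of several clusters, did not pass in any comparison. Its level was 55.3 to 84.4 CPM (median 69.9) in control, 49.4 to 62.5 CPM (median 57.1) in NASH and 56.6 to 75.6 CPM (median 67.5) in NASH-CH rats. Its NASH-CH value, a log2 fold change of -0.06 ± 0.11 (SE, limma adjusted p = 0.733), was the one nearest 0 of all members, and it lay above 0 by library size alone (0.20) and without rats 5 and 6 (0.03).

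Among 8 tested accessory subunits of the peripheral arm, Ndufa2, Ndufa6 and Ndufa7 fell in NASH-CH rats, and the median of the 8 was -0.36. Ndufa2, a thioredoxin-fold subunit, was at 25.7 to 40.8 CPM (median 36.95) in control, 23.6 to 27.3 CPM (median 26.7) in NASH and 17.9 to 28.1 CPM (median 24.8) in NASH-CH rats, with a log2 fold change of -0.53 ± 0.13 (SE, limma adjusted p = 0.00893). Control rats 2 and 6 were its lowest controls and overlapped both other groups. Ndufa12, which lies where the NADH module joins the rest of the arm, had the lowest NASH value of the 34 subunits. It was at 15.6 to 26.1 CPM (median 22.8) in control, 13.7 to 18.3 CPM (median 15.5) in NASH and 12.3 to 20.4 CPM (median 18.8) in NASH-CH rats. Neither its NASH value (log2 fold change -0.47 ± 0.14 SE, limma adjusted p = 0.0754) nor its NASH-CH value (log2 fold change -0.36, adjusted p = 0.0906) passed by limma. Ndufs4, whose loss causes Leigh syndrome, did not pass either: 18.1 to 26.9 CPM (median 22.5) in control, 18.3 to 20.2 CPM (median 19.02) in NASH and 17.6 to 22.6 CPM (median 20.00) in NASH-CH rats, at -0.13 in NASH-CH rats (adjusted p = 0.357 by limma). By library size alone that value was 0.12.

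The symbol Ndufv3, a subunit of the NADH module, was carried by 2 Ensembl rows. The row ENSRNOG00000001182 was at 38.4 to 65.8 CPM (median 56.6) in control and 31.01 to 52.6 CPM (median 45.6) in NASH-CH rats and did not pass in any comparison. The 1 member that was not tested, ENSRNOG00000027593, held 0 to 19 counts per rat.

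In the proximal membrane arm, which lies next to the peripheral arm, 6 of 8 tested accessory subunits fell in NASH-CH rats. They were Ndufa1, Ndufa3, Ndufa8, Ndufa11, Ndufc1 and Ndufs5, and the median of the 8 was -0.46. Ndufs5 (ENSRNOG00000026646), a subunit of the face toward the intermembrane space, was at 23.2 to 32.1 CPM (median 29.8) in control, 20.3 to 26.3 CPM (median 26.03) in NASH and 18.6 to 22.5 CPM (median 20.4) in NASH-CH rats. Its NASH-CH and control ranges did not overlap, and it fell with a log2 fold change of -0.44 ± 0.10 (SE, limma adjusted p = 0.00657). By library size alone its adjusted p was 0.132. Ndufa11, a small multi-pass subunit of the membrane arm, had the most extreme NASH statistic of this group, at a log2 fold change of -0.39 ± 0.14 (SE, limma adjusted p = 0.115). Levels of Ndufa11 were 48.1 to 80.2 CPM (median 69.1) in control, 41.3 to 56.5 CPM (median 51.6) in NASH and 37.3 to 57.3 CPM (median 52.2) in NASH-CH rats. The NASH-CH call for Ndufa11 (log2 fold change -0.44, adjusted p = 0.0418 by limma) held in 9 of the 18 fits that left out 1 rat.

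The distal membrane arm, far from the NADH site, held the most calls. Of its 10 tested Ndufb subunits 9, all but Ndufb5, fell in NASH-CH rats, and the median was -0.51, or 70.4% of the control level. In NASH rats the 10 had a median of -0.39 and 9 had an unadjusted p under 0.05. With library size as the only scaling 5 of the 10 fell, and without NASH-CH rats 5 and 6 there were 3. Whether the distal arm differed from the other modules was not tested.

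Ndufb2 (ENSRNOG00000026616), a small subunit of the distal arm, showed the lowest NASH-CH value of all 42 members. Control rats were at 24.2 to 39.6 CPM (median 35.6), NASH rats at 21.2 to 26.3 CPM (median 23.5) and NASH-CH rats at 15.5 to 21.4 CPM (median 17.98). Every NASH-CH rat was below every control rat, and rat 1 was the only NASH-CH rat within the NASH range. Ndufb2 fell to 57.2% of the control level in NASH-CH rats (log2 fold change -0.81 ± 0.12 SE, limma adjusted p = 0.000235). It was called in all 18 fits that left out 1 rat, by library size alone (log2 fold change -0.55, adjusted p = 0.000733) and without NASH-CH rats 5 and 6 (-0.74, adjusted p = 0.00184). Its NASH value was -0.43, with an adjusted p of 0.0612 by limma.

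Ndufb8 (ENSRNOG00000014078), a subunit widely used on blots as a sign of an assembled complex, was at 31.2 to 50.4 CPM (median 42.9) in control, 26.5 to 32.3 CPM (median 29.9) in NASH and 16.9 to 29.5 CPM (median 23.5) in NASH-CH rats. The NASH-CH rats again lay below every control rat, and they overlapped the NASH rats. It fell with a log2 fold change of -0.81 ± 0.14 (SE, limma adjusted p = 0.000747), to 57.2% of control. Ndufb9, an LYR-motif subunit, was at 50.2 to 88.5 CPM (median 74.6) in control, 46.2 to 54.5 CPM (median 50.2) in NASH and 38.6 to 54.6 CPM (median 48.99) in NASH-CH rats. Its spread was widest in control rats, where rats 2 and 6 were at 50.2 and 50.9 CPM. It fell in NASH-CH rats (log2 fold change -0.55 ± 0.14 SE, limma adjusted p = 0.0119) but not without rats 5 and 6 (adjusted p = 0.0627), and its NASH value of -0.46 had an adjusted p of 0.0634.

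Ndufab1 (ENSRNOG00000018129) encodes the mitochondrial acyl carrier protein, which sits in complex I and also serves mitochondrial fatty acid and lipoic acid synthesis. Its levels were 17.8 to 29.3 CPM (median 24.2) in control, 17.6 to 20.5 CPM (median 18.99) in NASH and 10.9 to 16.3 CPM (median 14.8) in NASH-CH rats. All 6 NASH-CH rats were below all 12 others; 2.10% of all genes tested had every NASH-CH rat below every NASH rat. It fell against control with a log2 fold change of -0.76 ± 0.13 (SE, limma adjusted p = 0.000629) and in each of the 18 fits without 1 rat. It was also the only member called between the disease groups, where 4.20% of all genes passed, 2.39% lower and 1.81% higher in NASH-CH rats (log2 fold change -0.46 ± 0.13 SE, limma adjusted p = 0.0489). That second call held in 6 of 18 fits without 1 rat, and without NASH-CH rats 5 and 6 the value was -0.31 with an adjusted p of 0.190. By edgeR no member was called between the disease groups, and 9 had an unadjusted p under 0.05 by limma, against 17.5% of all genes.

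**Figure D4:**
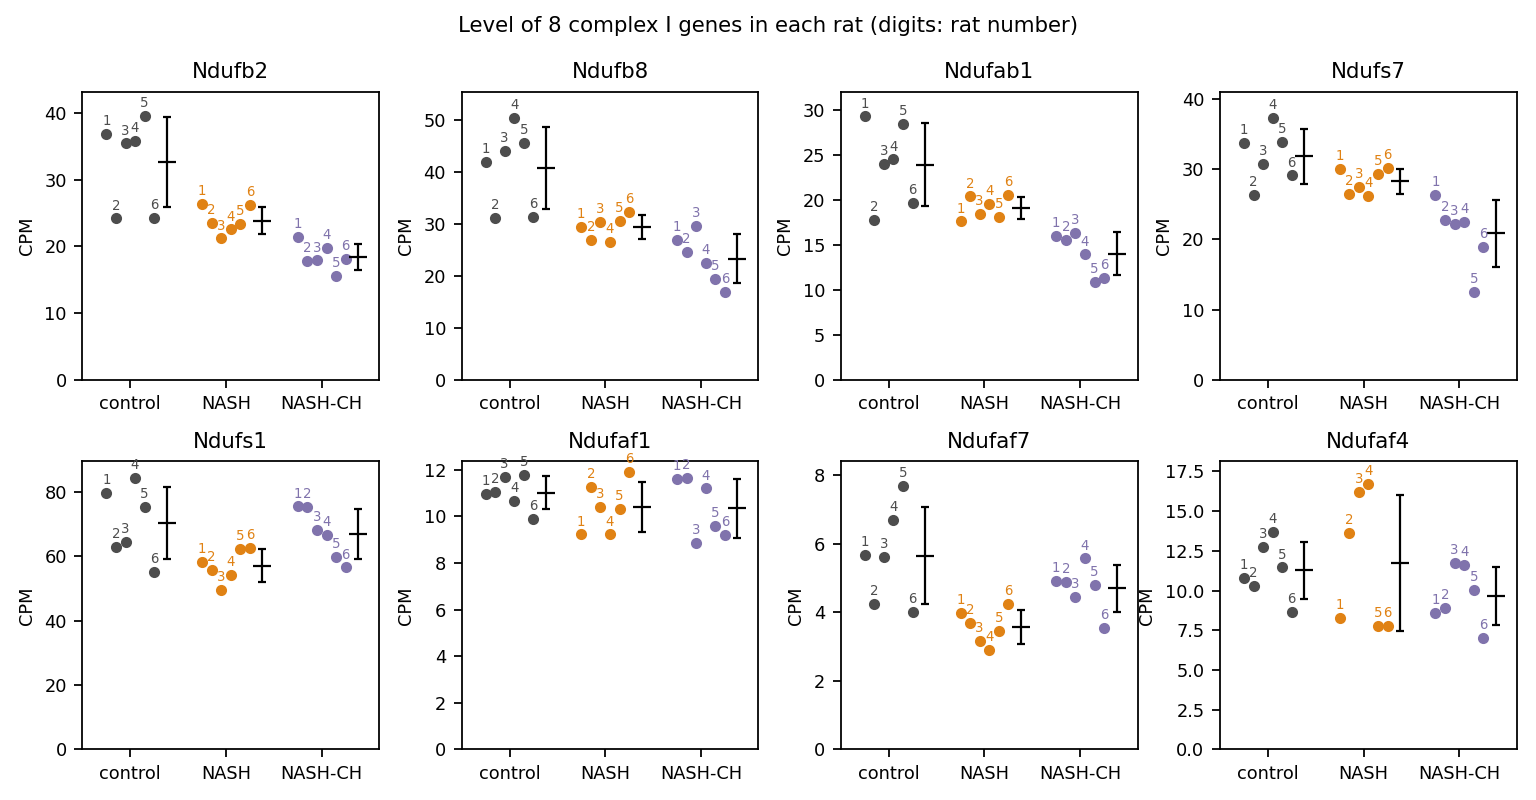
CPM scaled by TMM (vertical axis, from 0) of 8 genes in each rat, numbered within its group, with the group mean ± SD (n = 6). Ndufb2, Ndufb8 and Ndufab1 show every NASH-CH rat below every control rat, while Ndufs1, Ndufaf1 and Ndufaf4 overlap across all groups.

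Ndufa4, found with complex IV in current models, was at 91.7 to 145 CPM (median 121) in control, 80.9 to 102 CPM (median 92.5) in NASH and 61.3 to 100 CPM (median 84.2) in NASH-CH rats. It fell in NASH-CH rats with a log2 fold change of -0.55 ± 0.14 (SE, limma adjusted p = 0.0104), but without NASH-CH rats 5 and 6 the adjusted p was 0.0547.

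Between the disease groups the subunits differed less than from control. The median over subunits was -0.11 for NASH-CH against NASH, with 29 of 34 below 0, against 48.7% of all genes. Without NASH-CH rats 5 and 6 that median was 0.02 and 14 of 34 were below 0. Over the 7 assembly factors it was 0.12, with 3 below 0. The SE of a subunit had a median of 0.13 in both comparisons with control.

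The 7 assembly factors were low in counts, with 18 to 773 per rat. In NASH-CH rats 5 of the 7 had an SE above the subunit median of 0.13, while Ndufaf1 had the smallest SE of all 42 members (0.093). Ndufaf7, an arginine methyltransferase that acts early in assembly, was at 4.02 to 7.69 CPM (median 5.64) in control, 2.89 to 4.23 CPM (median 3.57) in NASH and 3.53 to 5.57 CPM (median 4.84) in NASH-CH rats. NASH rats 1 to 5 were below every control rat. Its NASH value was the lowest of any member and missed the threshold narrowly (log2 fold change -0.61 ± 0.17 SE, limma adjusted p = 0.056), at 65.5% of control. In NASH-CH rats it was at -0.23 (adjusted p = 0.308 by limma), and NASH-CH against NASH gave a log2 fold change of 0.38 ± 0.16 (SE, limma adjusted p = 0.202). Without NASH-CH rats 5 and 6 in the fit, the NASH value of Ndufaf7 had an adjusted p of 0.0303.

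Ndufaf3, which acts with Ndufaf4 at the ubiquinone module, was at 7.67 to 11.7 CPM (median 9.92) in control, 6.44 to 8.70 CPM (median 7.64) in NASH and 6.35 to 10.5 CPM (median 8.65) in NASH-CH rats, at -0.36 in NASH rats (adjusted p = 0.144 by limma). Ndufaf4 was split within the NASH group: rats 2, 3 and 4 were at 13.6 to 16.7 CPM and rats 1, 5 and 6 at 7.74 to 8.25. Control rats lay between, at 8.68 to 13.7 CPM (median 11.1), and NASH-CH rats at 7.03 to 11.7 CPM (median 9.47), and the NASH value was a log2 fold change of -0.02 ± 0.21 (SE, limma adjusted p = 0.972). RefSeq lists 5 pseudogene copies of Ndufaf4, between which reads could be divided. The part of such copies in these values was not tested.

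Ndufaf1, a chaperone of the membrane arm intermediate, was level across groups: 9.90 to 11.8 CPM (median 11.02) in control, 9.23 to 11.9 CPM (median 10.4) in NASH and 8.87 to 11.6 CPM (median 10.4) in NASH-CH rats. Its NASH-CH value was a log2 fold change of -0.10 ± 0.09 (SE, limma adjusted p = 0.507) and by library size alone it was 0.16. Ndufaf2, a paralogue of Ndufa12 that holds its place before the NADH module arrives, was at 1.74 to 3.47 CPM (median 2.66) in control, 1.99 to 2.69 CPM (median 2.21) in NASH and 1.83 to 2.44 CPM (median 1.96) in NASH-CH rats, with a log2 fold change of -0.35 ± 0.15 (SE, limma adjusted p = 0.116) in NASH-CH rats. Ndufaf5, a hydroxylase of Ndufs7, ran from 2.04 to 5.11 CPM in control, from 1.43 to 3.52 in NASH and from 2.41 to 3.35 in NASH-CH rats, and the groups overlapped. Ndufaf6 had the largest errors of all members (SE 0.34 to 0.38), with 1.21 CPM in control rat 3 and 0.771 CPM in NASH rat 2 beside 1.86 to 4.81 CPM in the other rats. Neither Ndufaf5 nor Ndufaf6 passed in any comparison.

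Complex I assembly also needs factors whose names fall outside the symbol rule. Of 11 such genes tested, among them Acad9, Ecsit, Timmdc1, Nubpl and Foxred1, none passed in any comparison by limma, with 2 at an unadjusted p under 0.05 in NASH-CH rats (31.7% of all genes) and 1 in NASH rats. The edgeR test called 1 of them lower in NASH-CH rats. The median over the 11 was -0.07 in NASH and -0.14 in NASH-CH rats. Tmem70, which acts in assembly of complex I and ATP synthase, had the smallest p in NASH-CH rats, at -0.46 (adjusted p = 0.0545).

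The 7 subunits encoded by the mitochondrial genome form the membrane core to which the nuclear subunits bind. In NASH-CH rats 5 of the 7 rose and none fell, against 8.38% of all genes that rose. Mt-nd4 was at 359 to 493 CPM in control, 400 to 720 in NASH and 903 to 1084 in NASH-CH rats, so NASH-CH rats lay above all others. It rose by 1.27 on the log2 scale (SE 0.13, adjusted p = 2.76e-06). Mt-nd2 rose by 1.32, Mt-nd4l by 1.22 and Mt-nd1 by 0.86 in NASH-CH rats, and these 4 kept their call under every alternative tried. Mt-nd5 rose by 0.49 and lost the call in 10 of 28 alternatives, while Mt-nd3 (0.06) and Mt-nd6 (-0.22) did not pass; these 3 are named to complete the set. In NASH rats, where 1.58% of all genes rose, Mt-nd4 alone of the 7 did (0.51, adjusted p = 0.0342), a call lost in 10 of 28 alternatives. Against NASH rats the same 5 genes were higher in NASH-CH rats, by 0.67 to 0.92. All genes of the mitochondrial genome together took 17.0 to 24.5% of counts in control, 14.8 to 18.9% in NASH and 17.2 to 26.2% in NASH-CH rats. The means were 20.99%, 17.2% and 21.03%, so the rise of the 5 genes over control was not seen in this total.

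Within each rat, the mean of the 34 nuclear subunits minus that of the 7 mitochondrial ones cancels the scaling factor of the library. This difference was -3.10 to -2.49 log2 units in control, -3.39 to -2.61 in NASH and -4.55 to -3.65 in NASH-CH rats. The NASH-CH range did not overlap either other group, while NASH and control overlapped. The mitochondrial mean alone was 7.845 to 7.993 log2 CPM in control, 7.609 to 8.32 in NASH and 8.332 to 8.985 in NASH-CH rats. Its NASH-CH range also lay apart from both other groups, while the nuclear mean overlapped between groups. No test was made on this difference or on these means, since their genes were chosen with earlier results known. The libraries were made with a poly(A) kit, and transcripts of both genomes were counted in the same library. Adjacent mitochondrial transcripts overlap (Mt-nd4l and Mt-nd4) or lie antisense (Mt-nd6), and strand use in counting was not given in the sources used here.

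The other complexes set the complex I values in context. Of 36 tested nuclear genes of complexes III, IV and V, 27 fell in NASH-CH rats (8.60% of all genes) and 5 in NASH rats (1.54% of all genes), with medians of -0.51 and -0.36. The 5 NASH calls, for Uqcrq, Atp5o, Cox7a2, Uqcrh and Atp5g1, were lost in 8 to 16 of 29 alternatives each; Atp5g1 is named to complete the set. Every one of the 11 complex IV rows fell in NASH-CH rats (median -0.68), among them Cox7a2 (-0.82), Cox7c (-0.72), Cox6c (-0.71) and Cox8a (-0.74). Complex V had 11 of 15 (median -0.50, lowest -0.73), and Atp5j2 (-0.71) and Atp5e (-0.69) are named for their small p by limma. Complex III had 5 of 10 (median -0.37), with Uqcrq (-0.97) and Uqcr10 (-0.99) lowest. None of 8 complex II genes, 4 subunits (Sdha to Sdhd) and 4 assembly factors (Sdhaf1 to Sdhaf4), passed by limma, and edgeR called none. The median of the 8 was -0.29 in NASH-CH rats, and 6 of them lay below 0. By limma 5 had an unadjusted p under 0.05, against 31.7% of all genes. Sdhc had the smallest p of these (-0.33, adjusted p = 0.0596). Without NASH-CH rats 5 and 6 the counts were 6 of 11 for complex IV, 6 of 15 for complex V and 3 of 10 for complex III. The complex I subunits, with 23 of 34, thus moved beside genes of 3 other complexes, and no difference between complexes was tested.

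**Figure D5:**
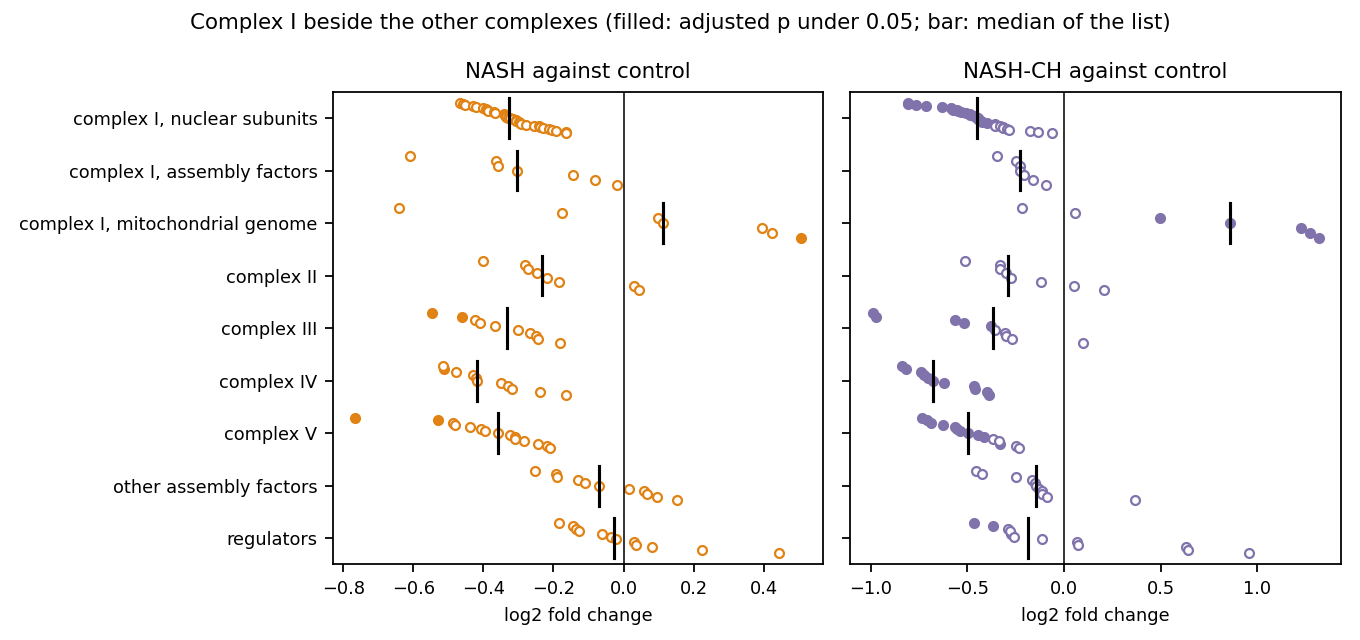
Points are log2 fold changes of single genes relative to control (horizontal axis), by complex or list, for NASH on the left and NASH-CH on the right; the bar is the median of the list and filled points have an adjusted p under 0.05. Nuclear genes of complexes I, III, IV and V lie mostly left of 0 in NASH-CH rats, and those of the mitochondrial genome mostly right of it.

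Regulators of respiratory chain genes were read from a list of 12. In NASH-CH rats 3 of the 12 fell, against 8.60% of all genes tested. None passed in NASH rats, where 3.12% of all genes did. There none had an unadjusted p under 0.05 by limma, against 21.5% of all genes. Esrra, the oestrogen-related receptor alpha, was at -0.47 (adjusted p = 0.0102), Tfam, which packages mitochondrial DNA, at -0.27 (adjusted p = 0.0305) and Polrmt, the mitochondrial RNA polymerase, at -0.37 (adjusted p = 0.0341), all by limma. The calls of Esrra, Tfam and Polrmt were lost in 1, 8 and 9 of 29 alternatives, and without NASH-CH rats 5 and 6 Tfam had an adjusted p of 0.107. By library size alone none of the 12 fell and 1 rose, against 3.79% of all genes that fell and 25.3% called in either direction in NASH-CH rats. Of Lonp1, Clpp and its partner Clpx, the 3 genes of the matrix proteases that clear unassembled subunits, none passed by limma. In NASH-CH rats 1 had an unadjusted p under 0.05, against 31.7% of all genes, and Clpx had the smallest p (-0.995, adjusted p = 0.0601).

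The other 5 symbol matches did not reach the count level and are not among the members. Ndufs6 held 0 to 2 counts and Ndufa13 0 to 3 counts per rat, although both encode subunits that every complex I holds. These rows were not read as expression. In RefSeq, Ndufs6 is also a synonym of a pseudogene and Ndufa13 has 4 listed pseudogene copies. The part of such copies in the low counts was not tested. Ndufa4l2 held 0 to 7 counts, and Ndufb4l1 and Ndufa10l1 were at 0 in all 18 rats. No gene in the counts carried the symbol Ndufb1 or Ndufaf8, so these were not analysed here. Among the 42 member symbols, 18 had pseudogene copies listed by RefSeq, 41 in all and 7 for Ndufb4, and counts of these genes are uncertain where the authors' counting divided reads among near-identical copies.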

How the data were processed

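Liver RNA of 18 rats was sequenced by the submitters from poly(A)-selected stranded libraries. Per the labels and methods, reads were trimmed with Trim Galore, aligned with STAR to Rnor_6.0 and counted with RSEM, and the deposited files hold the authors' expected counts per Ensembl gene, on an Ensembl release that the methods give; versions of the tools were not given in the sources used here. Such counts divide reads shared by similar genes. The labels name the RNAqueous-Micro kit and the methods another extraction kit, and which was used cannot be told apart here.

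Expected counts were rounded to whole numbers. Genes passing filterByExpr of edgeR 4.0.16 (12904 of 32623) were scaled by TMM and fitted with limma-voom (limma 3.58.1, R 4.3.3), with 1 mean per group over all 18 rats and no covariate. Benjamini-Hochberg adjustment ran over all genes tested, with a threshold of 0.05. Log2 CPM used a prior count of 2. The quasi-likelihood test of edgeR and DESeq2 1.42.0 were alternatives, as were other scalings, filters, sample weights, a replicate block and leaving out each rat. The members and lists were chosen with earlier results of these data known.

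Genes named with values were all assembly factors, in each role the subunit with the most extreme statistic in each comparison with control, members called in NASH against control or in NASH-CH against NASH, the 3 lowest and 3 highest fold changes in each comparison with control, members of unclear identity, and at most 4 called genes of each other list (otherwise the one with the smallest p). Rats with the same number in different groups correlated between -0.12 and 0.17 in their deviations from group means. Of the 18 pairs, 3 were over 0.1. Rats with different numbers were not compared, so these values cannot settle whether the numbers pair rats. No 2 libraries of a group agreed within sampling noise: the smallest chi-square per degree of freedom was 29.8. The labels do not say how rats were assigned to batches. Some genes that enter the counts are not reported here by name.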

Additional observations from a re-analysis of the deposited data

Results flagged for a closer look

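In 7 of 75 sets of 6 values, 1 rat lay far from the others of its group, where chance gives about 1 in 20; the gap to the nearest rat is given as a share of the whole range of the group. For Ndufaf5, NASH rat 4 was the lowest with a gap of 0.706 (1.43 CPM against 2.71 to 3.52 in the others). For Ndufaf6, the gap was 0.681 for NASH rat 2 (0.771 CPM against 2.50 to 4.28) and 0.674 for control rat 3 (1.21 CPM against 3.08 to 4.81). For Ndufaf2, NASH-CH rat 1 was the highest with a gap of 0.644 (2.44 CPM against 1.83 to 2.03). In the mean level of the 7 assembly factors, NASH-CH rat 6 was the lowest with a gap of 0.672 (2.00 log2 CPM against 2.30 to 2.45). NASH-CH rat 5 was the lowest in the mean of nuclear subunits minus assembly factors, with a gap of 0.691, and in nuclear minus mitochondrial subunits, with a gap of 0.722 (-4.55 against -3.90 to -3.65).

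The disease groups differed from each other, by the limma test of NASH-CH against NASH, in Ndufab1 (log2 fold change -0.46, adjusted p = 0.0489) and in 5 complex I genes of the mitochondrial genome. The latter were Mt-nd1 (0.75, adjusted p = 0.0126), Mt-nd2 (0.92, adjusted p = 0.00264), Mt-nd4 (0.76, adjusted p = 0.00170), Mt-nd4l (0.80, adjusted p = 0.00685) and Mt-nd5 (0.67, adjusted p = 0.0171). Mt-nd5 was named after its values were seen. Its call was lost in 2 of 28 alternatives, and that of Ndufab1 in 16 of 29, of which 12 left out 1 rat and 1 left out NASH-CH rats 5 and 6.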

How the results depend on the processing

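The number of members called in NASH rats was 0 by limma-voom, 4 by edgeR, 11 by DESeq2, 1 with at least 10 counts in every rat, 2 with the groups compared fitted alone, 19 with sample quality weights and 9 without both NASH-CH rats with the highest TMM factors, and 0 to 14 without 1 rat (14 without control replicate 6). In NASH-CH rats the 24 calls became 12 by library size only, 15 with the groups alone, 8 without both NASH-CH rats (5 and 6), 7 at an adjusted p under 0.01, and 17 to 29 without 1 rat (17 without control 1). Of the 24, 17 were called in every fit without 1 rat. For NASH-CH against NASH the 1 call became 0 by edgeR, 3 by DESeq2, 2 by library size only, 2 without a filter, 0 with at least 10 counts in every rat, 2 with the groups alone, 2 with quality weights, 0 without both NASH-CH rats, 0 at an adjusted p under 0.01, and 0 to 2 without 1 rat. Calls over all genes moved as well: in NASH rats 3.12% of genes passed by limma-voom, 5.05% by edgeR, 9.53% by DESeq2, 11.7% with quality weights, 7.79% without both NASH-CH rats and 7.55% without control replicate 6, and in NASH-CH rats 17.0% passed by limma-voom, 25.3% by library size only, 10.9% with the groups alone and 12.7% without both NASH-CH rats. The replicate block, which joins rats of the same number, gave 1, 22 and 0 calls in the 3 comparisons. A stricter threshold calls less by construction. Fits of the compared groups alone or of fewer rats use less data, but they called more members in some comparisons and fewer in others. The cause of these shifts was not tested.

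Subunit medians without 1 rat were -0.39 to -0.27 (NASH), -0.52 to -0.39 (NASH-CH) and -0.16 to -0.06 (NASH-CH against NASH), and assembly factor medians were -0.37 to -0.12, -0.31 to -0.15 and -0.05 to 0.18. By library size only the assembly factor median in NASH-CH rats was 0.028.

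Of 2599 values of named genes under alternatives, 2366 kept direction and call, 56 gained and 130 lost a call, and 47 changed sign, none of these 47 past the threshold. By library size only, log2 fold changes in NASH rats turned to 0.138 for Ndufaf1, 0.063 for Ndufaf2, 0.197 for Ndufaf4, 0.062 for Ndufs7, 0.012 for Ndufs5 and 0.018 for Ndufs4. In NASH-CH rats they turned to 0.159 for Ndufaf1, 0.050 for Ndufaf3, 0.028 for Ndufaf4, 0.097 for Ndufaf6, 0.012 for Ndufaf7, 0.120 for Ndufs4 and 0.197 for Ndufs1, and between the disease groups to 0.021 for Ndufaf1 and 0.021 for Ndufv3. Ndufaf4 in NASH rats was also above 0 by edgeR (0.054), by DESeq2 (0.050) and with the replicate block (0.0051). Without both NASH-CH rats, Ndufs1 was at 0.033 against control, and between the disease groups the values were 0.049 for Ndufaf1, 0.113 for Ndufa11, 0.026 for Ndufb9 and 0.180 for Ndufv3. Quality weights gave 0.038 for Ndufaf1, 0.027 for Ndufa11 and 0.064 for Ndufv3 between the disease groups, where Ndufv3 was at 0.0047 with at least 10 counts in every rat. Without 1 rat, NASH values ran from -0.130 to 0.091 for Ndufaf4 and from -0.566 to 0.015 for Ndufaf6. Values between the disease groups ran from -0.055 to 0.029 for Ndufaf1, -0.062 to 0.182 for Ndufaf5, -0.177 to 0.272 for Ndufaf6, -0.104 to 0.019 for Ndufa11 and -0.116 to 0.074 for Ndufv3. The cause of these turns was not tested.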
